A study of Mus musculus with 8 samples.

Results

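Genes that build ribosomes were followed across 4 sorted populations of mouse bone marrow cells, titled CDP or pre-CD8. The set was a list of 40 gene symbols covering nucleolar proteins, rRNA processing factors and RNA polymerase I. Each gene was read from the probe sets of an Affymetrix array whose annotation gives that symbol alone, taking the probe set with the highest mean over the 8 arrays. By this rule 39 of the 40 genes were measured, of 19938 genes in all, and Noc2l had no probe set of its own. The values of Fbl, Wdr12 and Ddx18 were each chosen from 2 probe sets.

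Ribosome biogenesis begins in the nucleolus, where RNA polymerase I transcribes the precursor of the ribosomal RNAs. Small nucleolar ribonucleoproteins, or snoRNPs, modify this precursor, and separate sets of assembly factors cut and fold it into the small and the large ribosomal subunit. Cells that grow and divide make ribosomes at a high rate, and the transcription factor Myc is known to activate many of the genes involved.

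One pair of populations was CDP, common dendritic cell progenitors. The other was pre-CD8, which the labels do not define further. Both were divided by green fluorescence into Id2-GFP- and Id2-GFP+ cells, which gave 4 groups of 2 arrays. Source names and descriptions give an Id2-IRES-GFP reporter mouse for all 8. The genotype field gives heterozygous Id2-IRES-GFP mice for both Id2-GFP- CDP samples and heterozygous Zbtb46-GFP mice for the other 6, so in every comparison with Id2-GFP- CDP the sorted population and the recorded genotype cannot be told apart. Red blood cells were lysed before the sort, total RNA was extracted on columns, and a kit for very small inputs made the labelled cDNA. The labels give no age, background strain, drug treatment or sort gates. They do not say whether replicates came from separate mice, so the spread behind each p-value is that of these arrays alone and may be technical.

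The submitters asked which genes mark each population and how the populations follow one another in development. Id2, the gene of the reporter, was higher on the 4 arrays titled Id2-GFP+ (log2 intensity 9.26 to 10.99) than on the 4 titled Id2-GFP- (5.14 to 7.18). In each group 1 array was brighter than the other in mean intensity over all probe sets. The brighter arrays, with a mean intensity of 460.7 to 477.9, were replicate 1 of both Id2-GFP- groups and replicate 2 of both Id2-GFP+ groups. On the dimmer arrays it was 401.6 to 413.8. Medians of log2 intensity overlapped, at 6.196 to 6.269 on brighter and 6.123 to 6.227 on dimmer arrays. The interquartile range was 3.651 to 3.73 on brighter and 3.15 to 3.411 on dimmer arrays. Among the dimmer arrays it was 3.15 (CDP) and 3.301 (pre-CD8) for Id2-GFP+, and 3.411 and 3.341 for Id2-GFP-. The part of this spread in the reporter difference was not tested. These 2 array sets were defined from the values, and no label names them. The 6 markers taken for CDP were Flt3, Csf1r, Kit, Cd34, Irf8 and Tcf4. In Id2-GFP+ against Id2-GFP- pre-CD8, limma without a block called Flt3, Csf1r, Cd34 and Tcf4 lower and Irf8 higher, and between CDP classes it called 0, with 2 at an unadjusted p under 0.05. Csf1r was at 10.14 to 11.10 in CDP and 7.93 to 9.30 in pre-CD8. The 7 markers taken for pre-CD8 were Clec9a, Batf3, Irf8, Zbtb46, Id2, Cd226 and Xcr1. In Id2-GFP+ against Id2-GFP- cells limma without a block called 6 of them higher in pre-CD8 and 3 higher in CDP. Of all genes it called 6.26% and 0.597% in these comparisons, in either direction. From Id2-GFP- CDP to Id2-GFP- pre-CD8 it called 0 higher and 1 lower. In Id2-GFP- pre-CD8 Clec9a was at 5.47 and 6.28 and Batf3 at 6.89 and 7.24, against 9.78 to 10.55 and 10.04 to 10.18 in Id2-GFP+ pre-CD8. All 39 genes had a mean above the median level of all genes, and their values ran from 6.31 to 12.36.

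Ribosome biogenesis genes were lower in Id2-GFP+ cells than in Id2-GFP- cells at both stages, in a shift spread over all roles. Whether single genes passed the test depended on the fit. In limma without a block 0 did, where 0.597% of all genes did in CDP and 6.26% in pre-CD8. With the array set as a block 24 were called lower at each stage, against 4.17% and 13.2% of all genes. In CDP the median log2 difference of the 39 genes was -0.51, against 0.00 over all genes and -0.08 over the 9969 genes above the median level. In pre-CD8 it was -0.47, against -0.01 and -0.04. All 39 genes had a lower mean in Id2-GFP+ CDP, with differences from -1.02 to -0.12, and 37 had a lower mean in Id2-GFP+ pre-CD8, with differences from -1.12 to 0.02. In sorted bulk samples, fewer cells that express a gene and less RNA per cell cannot be told apart.

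The median of the 39 genes was 10.04 and 9.20 on the Id2-GFP- CDP arrays (log2 intensity, replicate 1 and then replicate 2, as in all pairs of values that follow). It was 8.53 and 9.39 in Id2-GFP+ CDP, 10.04 and 9.36 in Id2-GFP- pre-CD8, and 8.70 and 9.32 in Id2-GFP+ pre-CD8. The brighter Id2-GFP+ array of each stage thus reached about the level of the dimmer Id2-GFP- array, while brighter was lower than brighter and dimmer lower than dimmer. In CDP 25 of the 39 genes stood lower on the dimmer Id2-GFP- array than on the brighter Id2-GFP+ array, as did 18 in pre-CD8. Every gene had its highest of 8 values on replicate 1 of an Id2-GFP- group (23 in CDP and 16 in pre-CD8). The lowest of the 8 values was on replicate 1 of Id2-GFP+ CDP for 31 genes and of Id2-GFP+ pre-CD8 for 7, with Nop16 the exception. No share of all genes is given for these orders of arrays. Among genes above the median level 62.9% were higher on the brighter array of all 4 groups, against 94.9% of the set.

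**Figure D1:**
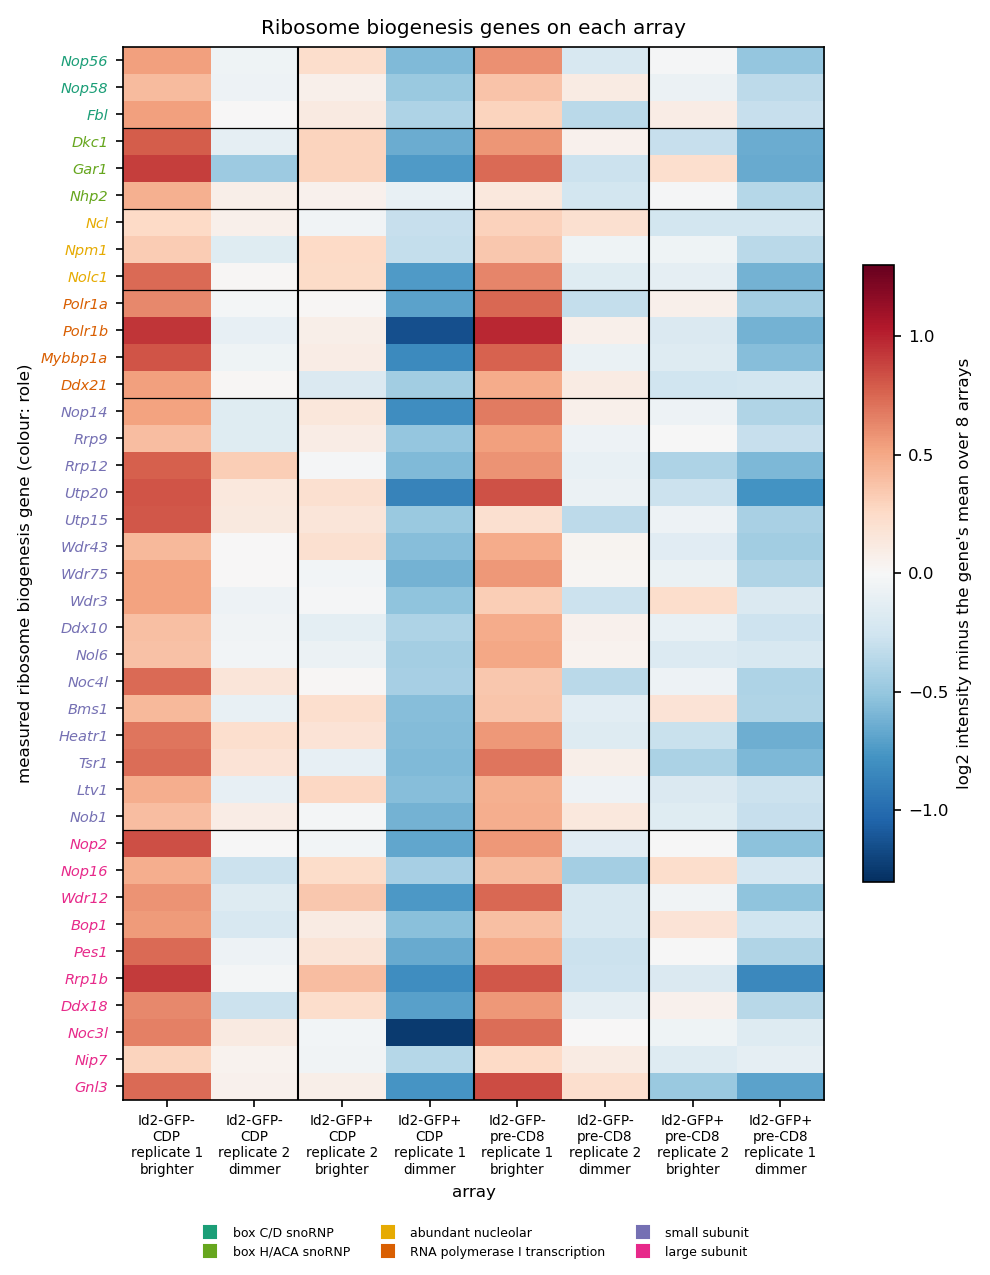
Log2 intensity of the 39 measured ribosome biogenesis genes (rows, grouped by role) on the 8 arrays (columns, brighter array of each group first), each as its difference from the gene's mean over the arrays. Replicate 1 of both Id2-GFP- groups holds the highest value of every gene, and replicate 1 of the Id2-GFP+ groups holds the lowest of 38.

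By limma, 0 of the 39 genes differed between reporter classes in CDP at an adjusted p under 0.05, where 0.597% of all genes did, and 0 in pre-CD8, where 6.26% did. At an unadjusted p under 0.05 there were 4 in each stage. The smallest adjusted p was 0.682 in CDP, for Rrp12, and 0.139 in pre-CD8, for Gnl3. Quantile normalization between arrays gave 0 calls in CDP and 11 in pre-CD8. No share of all genes is given for that setting, so these counts do not show whether the set stood out. Scale normalization moved the pre-CD8 median from -0.47 to -0.31, with Fbl, Nhp2 and Bop1 then above 0 there. Among the 39 genes 14 had both Id2-GFP+ CDP arrays below both Id2-GFP- CDP arrays, against 12% of all genes, and 21 did in pre-CD8, against 21.5%. Leaving out each array in turn moved the median difference between -0.88 and -0.21 in CDP (the smaller shift without Id2-GFP- CDP replicate 1) and between -0.73 and -0.21 in pre-CD8 (without Id2-GFP- pre-CD8 replicate 1).

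Compared within array sets, all 39 genes were lower in Id2-GFP+ CDP both between the brighter and between the dimmer arrays. Of all genes 32.4% were, and of genes above the median level, where all 39 lie, 46.8% were. In pre-CD8 it was 36 genes, against 37.6% of all genes and 45.5% of those above the median level. The same 36 were lower in both sets at both stages, against 19.4% of all genes, and the exceptions were Fbl, Wdr3 and Nop16 in pre-CD8. The median difference was -0.50 between brighter and -0.57 between dimmer arrays in CDP, and -0.63 and -0.32 in pre-CD8.

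**Figure D2:**
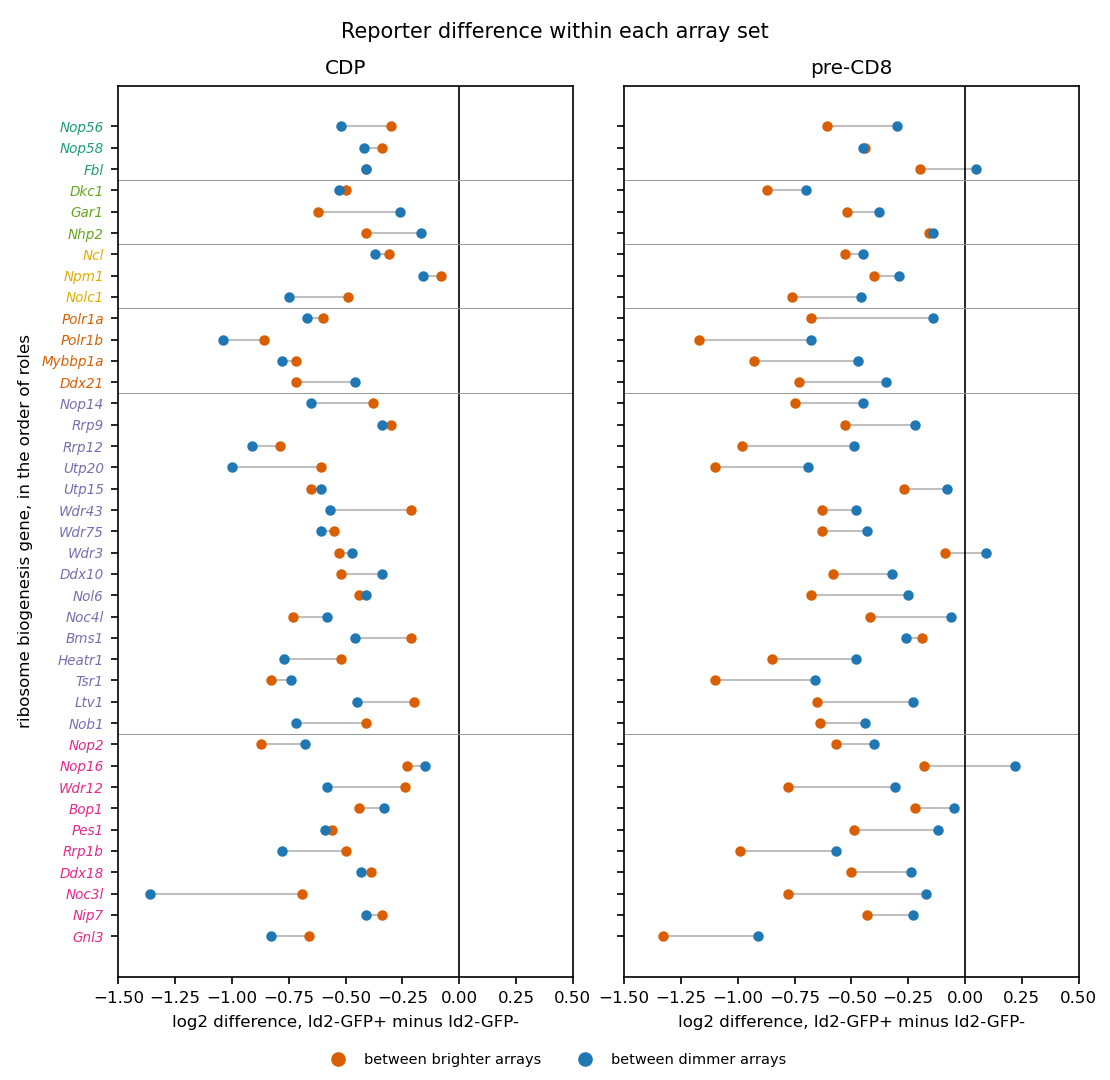
Log2 difference of Id2-GFP+ minus Id2-GFP- for each ribosome biogenesis gene, between the brighter arrays (orange) and between the dimmer arrays (blue), in CDP (left) and pre-CD8 (right). All 39 pairs of points lie below 0 in CDP, and in pre-CD8 the dimmer value is above 0 for Fbl, Wdr3 and Nop16.

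A fit with the array set as a block called 24 of the 39 genes lower in Id2-GFP+ CDP, where 4.17% of all genes were called lower, and 24 lower in Id2-GFP+ pre-CD8, where 13.2% were. It called 0 higher. The sets were built from these values, so blocked p-values, here and for single genes below, rest on that choice and may be too small. In that fit 17 genes were called at both stages, 7 in CDP alone, 7 in pre-CD8 alone and 8 at neither. Many or all of the CDP calls, and many of the pre-CD8 calls, were lost without certain single arrays of the compared groups. Such a fit leaves 1 array in a group, and no share of all genes is given for it. The loss is therefore not shown to be particular to the set. Over the arrays left out, the blocked median difference ran from -0.59 to -0.46 in CDP and from -0.58 to -0.34 in pre-CD8.

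**Figure D3:**
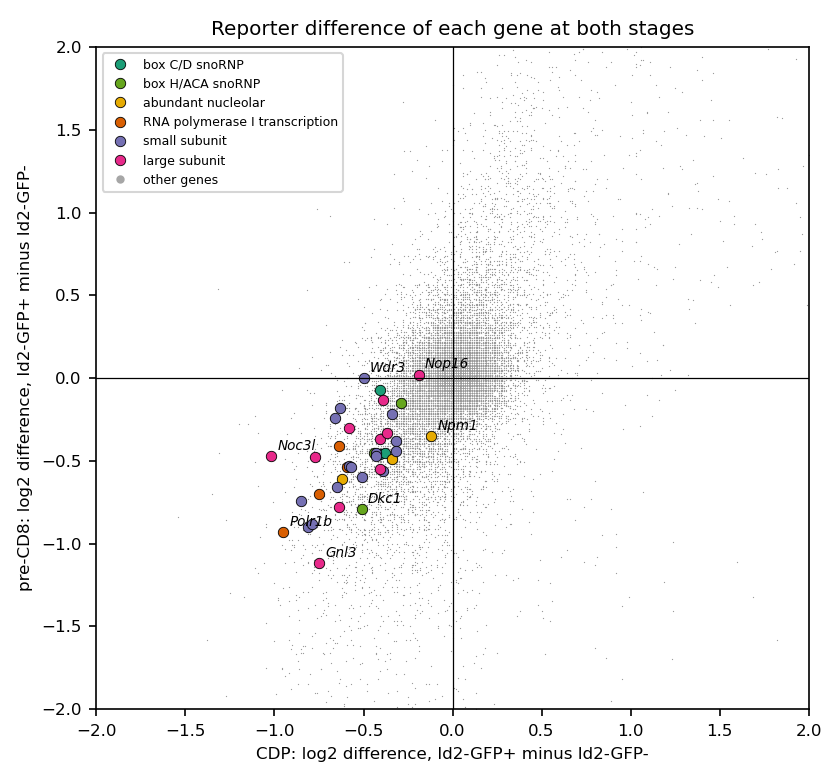
Log2 difference of Id2-GFP+ minus Id2-GFP- in CDP (horizontal) against that in pre-CD8 (vertical) for the 39 ribosome biogenesis genes (coloured by role) and other genes (grey, those beyond 2 lie outside the axes). The 39 genes lie left of 0, from -1.02 to -0.12, and 37 of them lie below 0.

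The E-box CACGTG, a DNA word that Myc and Max bind and that reads the same on both strands, was searched in RefSeq promoter windows. Windows of 300 bases, from 250 before to 50 after an annotated start on GRCm38.p6, were at hand for 34 of the 39 genes, and 7 of these 34 (20.6%) held the word. Among all tested genes with a window it was 1483 of 15614 (9.5%). Counted by window it was 7 of 37 (18.9%) against 1581 of 19177 (8.24%). The word lay in 4 of 16 genes called lower at both stages by the fit with the array set, in 1 of 6 called in CDP alone, in 1 of 5 called in pre-CD8 alone and in 1 of 7 called at neither. The 7 stretches are shown 5′ to 3′ on the gene's strand, with the E-box in capitals.
Mybbp1a: gtcttctgagccCACGTGtttg
Utp20: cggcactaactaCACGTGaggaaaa
Wdr43: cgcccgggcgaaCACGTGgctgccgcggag
Tsr1: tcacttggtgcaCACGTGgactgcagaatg
Ltv1: gccctgtggaccCACGTGtggagctgccgg
Nop2: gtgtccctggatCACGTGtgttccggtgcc
Pes1: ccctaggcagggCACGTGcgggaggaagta
They lie at chr11:72441355-72441376 (plus strand, Mybbp1a), chr10:88826765-88826789 (minus, Utp20), chr17:71616220-71616249 (plus, Wdr43), chr11:74898092-74898121 (plus, Tsr1), chr10:13193092-13193121 (minus, Ltv1), chr6:125131811-125131840 (plus, Nop2) and chr11:3963965-3963994 (plus, Pes1). In Nop2 the centre of the word was 57 bases before the annotated start, and in the other genes it was 5 (Pes1) to 43 (Mybbp1a) bases after it. A match describes the sequence and is no measurement of binding. All tested genes include dim ones, while the 39 genes lie above the median level. A link between the word and the reporter difference was not tested.

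Genes of RNA polymerase I transcription had the lowest medians among the roles, -0.69 in CDP and -0.62 in pre-CD8, and all 4 were lower in both array sets at both stages. Polr1b, a core subunit of RNA polymerase I, stood at 10.24 and 9.20 in Id2-GFP- CDP, 8.17 and 9.39 in Id2-GFP+ CDP, 10.29 and 9.38 in Id2-GFP- pre-CD8, and 8.70 and 9.12 in Id2-GFP+ pre-CD8. The reporter classes overlapped in CDP and not in pre-CD8. Its log2 difference was -0.95 ± 0.50 (SE) in CDP, a level 1.93-fold lower, and -0.93 ± 0.50 in pre-CD8. Here and below ± beside a difference is the SE of limma without the block, which called 0 of the 39 genes between reporter classes. In that fit the adjusted p of Polr1b was no smaller than 0.47 at either stage. In limma with the array set as a block its SE was 0.16 at both stages and its adjusted p-values 0.00711 and 0.00173. Polr1a, the largest subunit of the enzyme, differed by -0.64 ± 0.42 and -0.41 ± 0.42, with a blocked adjusted p of 0.0204 in CDP and 0.0568 in pre-CD8.

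Mybbp1a, a nucleolar protein of rRNA transcription and processing whose E-box is printed above, stood at 10.96 and 10.09 in Id2-GFP- CDP and 9.31 and 10.24 in Id2-GFP+ CDP. In pre-CD8 it stood at 10.91 and 10.06 in Id2-GFP- and 9.59 and 9.98 in Id2-GFP+ cells, so that the groups were apart by a narrow margin. The differences were -0.75 ± 0.42 in CDP and -0.70 ± 0.42 in pre-CD8, with blocked adjusted p-values of 0.00631 and 0.00196. Ddx21, an RNA helicase that couples rRNA transcription with processing, stood at 10.44 and 9.92 in Id2-GFP- CDP, 9.45 and 9.72 in Id2-GFP+ CDP, 10.39 and 10.01 in Id2-GFP- pre-CD8, and 9.67 and 9.65 in Id2-GFP+ pre-CD8. Its groups did not overlap at either stage. The differences were -0.59 ± 0.24 and -0.54 ± 0.24, with unadjusted p-values of 0.0384 and 0.0538 in the fit without the block and blocked adjusted p-values of 0.0176 and 0.00845.

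The box C/D snoRNP guides methylation of rRNA, and its 3 core genes had medians of -0.41 in CDP and -0.45 in pre-CD8. Nop56, a scaffold protein of the particle, stood at 11.20 and 10.61 in Id2-GFP- CDP, 10.09 and 10.89 in Id2-GFP+ CDP, 11.26 and 10.46 in Id2-GFP- pre-CD8, and 10.16 and 10.65 in Id2-GFP+ pre-CD8. The groups overlapped at both stages, with differences of -0.41 ± 0.37 and -0.46 ± 0.37. Its paralog and partner Nop58 differed by -0.38 ± 0.26 and -0.45 ± 0.26. Blocked adjusted p-values were 0.0307 and 0.00569 for Nop56 and 0.0492 and 0.00831 for Nop58.

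Fbl, fibrillarin, the methyltransferase of the box C/D particle, was 1 of the 3 genes that were not lower throughout. It stood at 12.36 and 11.84 in Id2-GFP- CDP and 11.43 and 11.95 in Id2-GFP+ CDP, a difference of -0.41 in both array sets. In pre-CD8 it stood at 12.12 and 11.48 in Id2-GFP- and 11.53 and 11.93 in Id2-GFP+ cells, and differed by -0.20 between brighter and 0.05 between dimmer arrays. The blocked adjusted p was 0.0076 in CDP and 0.568 in pre-CD8. Between stages in Id2-GFP- cells Fbl differed by -0.29 ± 0.29, lower at pre-CD8, with a blocked adjusted p of 0.0206.

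The box H/ACA snoRNP converts uridine of rRNA to pseudouridine, and its 3 genes had medians of -0.44 and -0.45. Dkc1, dyskerin, the enzyme of the particle, stood at 10.86 and 9.95 in Id2-GFP- CDP, 9.43 and 10.36 in Id2-GFP+ CDP, 10.64 and 10.13 in Id2-GFP- pre-CD8, and 9.43 and 9.77 in Id2-GFP+ pre-CD8. The classes overlapped in CDP and were apart in pre-CD8, where the difference was -0.79 ± 0.39 and the blocked adjusted p 0.00186. In CDP it was -0.51 ± 0.39 with a blocked adjusted p of 0.0521. Gar1, a small subunit of the particle, differed by -0.44 ± 0.56 and -0.45 ± 0.56, and its own gap between brighter and dimmer arrays ran up to 1.37 in Id2-GFP- CDP. Nhp2, another subunit, differed by -0.29 ± 0.22 and -0.15 ± 0.22 and was called at neither stage.

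The abundant nucleolar proteins differed less in CDP (median -0.34) than the polymerase genes, and by -0.49 in pre-CD8. Ncl, nucleolin, which binds nascent rRNA, had the smallest gap between replicates and stood at 11.65 and 11.46 in Id2-GFP- CDP, 11.09 and 11.35 in Id2-GFP+ CDP, 11.69 and 11.60 in Id2-GFP- pre-CD8, and 11.15 on both Id2-GFP+ pre-CD8 arrays. The reporter classes did not overlap at either stage. It differed by -0.34 ± 0.16 and -0.49 ± 0.16, with blocked adjusted p-values of 0.0284 and 0.00101. Nolc1, a chaperone of snoRNPs, stood at 10.59 and 9.86 in Id2-GFP- CDP and 9.11 and 10.10 in Id2-GFP+ CDP, which overlapped. It differed by -0.62 ± 0.42 in CDP and -0.61 ± 0.42 in pre-CD8. Npm1, nucleophosmin, a histone and ribosomal protein chaperone, had the smallest CDP difference of all 39 genes, -0.12 ± 0.27, and differed by -0.35 ± 0.27 in pre-CD8 with a blocked adjusted p of 0.0156.

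The 16 factors of the small subunit had medians of -0.54 in CDP and -0.50 in pre-CD8. With the array set as a block 10 were called lower at each stage and 0 higher, where 4.17% of all genes were called lower in CDP and 13.2% in pre-CD8. Tsr1, a late assembly factor of the small subunit, stood at 9.01 and 8.46 in Id2-GFP- CDP, 7.71 and 8.18 in Id2-GFP+ CDP, 8.98 and 8.36 in Id2-GFP- pre-CD8, and 7.70 and 7.87 in Id2-GFP+ pre-CD8. All 4 Id2-GFP+ values were below all 4 Id2-GFP- values. Its difference was -0.79 ± 0.30 in CDP and -0.88 ± 0.30 in pre-CD8, with blocked adjusted p-values of 0.00679 and 0.000659.

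Rrp12, a factor in the export of pre-ribosomes, stood at 8.24 and 7.79 in Id2-GFP- CDP, 6.89 and 7.45 in Id2-GFP+ CDP, 8.05 and 7.37 in Id2-GFP- pre-CD8, and 6.88 and 7.07 in Id2-GFP+ pre-CD8. The classes did not overlap within either stage. The differences were -0.85 ± 0.30, or 1.8-fold, and -0.74 ± 0.30. Nob1, the nuclease that makes the final cut of small subunit rRNA, stood at 9.03 and 8.73 in Id2-GFP- CDP and 8.02 and 8.61 in Id2-GFP+ CDP. With 9.10 and 8.77 against 8.33 and 8.47 in pre-CD8 it was also apart at both stages, by -0.57 ± 0.26 and -0.54 ± 0.26.

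Utp20 and Heatr1 are large scaffold proteins of the small subunit processome, the particle that forms on the nascent precursor. Utp20 stood at 9.05 and 8.36 in Id2-GFP- CDP, 7.36 and 8.44 in Id2-GFP+ CDP, 9.06 and 8.15 in Id2-GFP- pre-CD8, and 7.45 and 7.95 in Id2-GFP+ pre-CD8. The classes overlapped in CDP alone, and differed by -0.81 ± 0.44 and -0.90 ± 0.44. Heatr1 differed by -0.65 ± 0.35 and -0.66 ± 0.35, with blocked adjusted p-values of 0.0152 and 0.00349.

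Among the smaller processome proteins, Utp15, Noc4l and Wdr3 were called in CDP and not in pre-CD8 with the array set as a block. The CDP means of Utp15 were 8.65 ± 0.49 (SD, n = 2) for Id2-GFP- and 8.02 ± 0.46 for Id2-GFP+ cells, and the pre-CD8 means were 8.12 ± 0.39 and 7.94 ± 0.25. Its values in Id2-GFP- pre-CD8 were lower than in Id2-GFP- CDP, by -0.53 ± 0.34, the largest stage difference of the 39 genes in that class. Noc4l, with the same order of groups, differed by -0.66 ± 0.32 between reporter classes in CDP, -0.24 ± 0.32 in pre-CD8 and -0.44 ± 0.32 between stages in Id2-GFP- cells. Wdr3 differed by -0.50 ± 0.32 in CDP and 0.00 ± 0.32 in pre-CD8, where the brighter arrays gave -0.09 and the dimmer arrays 0.09.

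The other 8 small subunit genes differed by -0.58 to -0.32 in CDP and by -0.60 to -0.22 in pre-CD8. These were Wdr75 and Wdr43 of the processome, Nop14, the U3 snoRNP protein Rrp9, the helicase Ddx10, Nol6, the GTPase Bms1 and Ltv1. Wdr75 and Nop14 were called at both stages with the block, Wdr43, Ddx10 and Nol6 in pre-CD8 alone, and Rrp9, Bms1 and Ltv1 at neither.

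The 10 measured factors of the large subunit had medians of -0.49 and -0.42 and held both extremes of the pre-CD8 comparison, Gnl3 and Nop16. Gnl3, nucleostemin, a nucleolar GTPase of progenitor cells, stood at 10.04 and 9.36 in Id2-GFP- CDP, 8.53 and 9.38 in Id2-GFP+ CDP, 10.15 and 9.52 in Id2-GFP- pre-CD8, and 8.61 and 8.82 in Id2-GFP+ pre-CD8. In pre-CD8 the classes were well apart. There it differed by -1.12 ± 0.36, or 2.18-fold, with a blocked adjusted p of 0.0002. In CDP, where 1 Id2-GFP+ array matched an Id2-GFP- array, the difference was -0.75 ± 0.36 and the blocked adjusted p 0.0118.

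Noc3l, a nucleolar complex protein, stood at 8.21 and 7.67 in Id2-GFP- CDP and 6.31 and 7.52 in Id2-GFP+ CDP, a difference of -1.02 ± 0.41 or 2.03-fold. The value of 6.31 on Id2-GFP+ CDP replicate 1 was the lowest of any gene of the set. In pre-CD8 it stood at 8.28 and 7.56 in Id2-GFP- and 7.39 and 7.50 in Id2-GFP+ cells and differed by -0.47 ± 0.41. Nop2, an rRNA methyltransferase whose promoter holds the only E-box printed above that lies before a start, stood at 10.16 and 9.32 in Id2-GFP- CDP and 8.65 and 9.29 in Id2-GFP+ CDP. It differed by -0.77 ± 0.38 in CDP, with the smallest blocked adjusted p of the set at that stage, 0.00252, and by -0.48 ± 0.38 in pre-CD8.

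Rrp1b, a nucleolar protein of large subunit processing, differed by -0.64 ± 0.52 in CDP and -0.78 ± 0.52 in pre-CD8 and was called at both stages with the block. Pes1, Bop1 and Wdr12 form the PeBoW complex, needed for maturation of large subunit rRNA, and did not share 1 pattern of calls. With the block Pes1 was called in CDP alone (-0.58 ± 0.39), Wdr12 in pre-CD8 alone (-0.55 ± 0.45) and Bop1 at neither (-0.39 ± 0.35 and -0.13 ± 0.35). Nip7, a pre-ribosome binding protein, stood at 7.90 and 7.65 in Id2-GFP- CDP, 7.24 and 7.56 in Id2-GFP+ CDP, 7.87 and 7.72 in Id2-GFP- pre-CD8, and 7.49 and 7.44 in Id2-GFP+ pre-CD8, with the classes apart at both stages by a small margin. Nip7 and the helicase Ddx18 were called at neither stage, with differences from -0.41 to -0.33.

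Nop16 stood at 11.11 and 10.36 in Id2-GFP- CDP, 10.21 and 10.88 in Id2-GFP+ CDP, 11.05 and 10.20 in Id2-GFP- pre-CD8, and 10.42 and 10.87 in Id2-GFP+ pre-CD8. Its reporter classes overlapped throughout, with differences of -0.19 ± 0.38 and 0.02 ± 0.38. It was the gene of the set closest to no difference among the 4 groups, with a p of 0.966 in limma's F test without the block.

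Between stages the set as a whole hardly differed. From CDP to pre-CD8 the median log2 difference was -0.02 among Id2-GFP- cells (range -0.53 to 0.18) and 0.01 among Id2-GFP+ cells (range -0.31 to 0.53). By limma 0 of 39 genes were called in either class, where 1.63% and 0% of all genes were, and 0 had an unadjusted p under 0.05. With the array set as a block 4 genes of Id2-GFP- cells were called lower at the pre-CD8 stage, namely Fbl, Nhp2, Utp15 and Noc4l, against 6.65% of all genes. In Id2-GFP+ cells that fit called 0, against 2.08%. All or most of the 4 calls in Id2-GFP- cells were lost when 1 array of the compared groups was left out. No share of all genes is given for those fits.

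The reporter difference did not pass a test of change between stages for any gene of the set. The interaction contrast had a median of 0.02 and a range from -0.38 to 0.55, and limma called 0 of 39 genes without the block, where 0.145% of all genes were called, and 0 with it, where 7.48% were. At an unadjusted p under 0.05 without the block there were 0. The calls at 1 stage alone, as for Noc4l or Dkc1, are therefore not shown to differ from the other stage. Across the 39 genes the CDP and pre-CD8 reporter differences correlated with a Pearson r of 0.60 and a Spearman rho of 0.62. The 2 comparisons share no arrays, but all points of a stage share its 4 arrays, and genes are not independent replicates.

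Across both stage and reporter, Id2-GFP+ pre-CD8 was lower than Id2-GFP- CDP by a median of -0.49, and Id2-GFP- pre-CD8 was higher than Id2-GFP+ CDP by 0.46. These comparisons reuse the arrays of those above. Without the block limma called 0 genes in both, where 1.79% and 4.89% of all genes were called, with 5 and 6 at an unadjusted p under 0.05. With it 26 were called lower in the first, against 8.85% of all genes, and 26 higher in the second, against 12.1%. Both counts fell without certain single arrays of the compared groups, in fits for which no share of all genes is given. For any difference among the 4 groups, 0 genes passed without the block, where 4.92% of all genes did, with 4 at an unadjusted p under 0.05, and 33 passed with it, where 26.9% did.

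The gap between array sets was about the size of the reporter difference. Brighter minus dimmer had a median of 0.58 over the 39 genes (0.13 to 1.07), and 37 of them (94.9%) were higher on the brighter array of all 4 groups. Over all genes the median was 0.13 and the share 41.8%, and over genes above the median level they were 0.28 and 62.9%. By group the median gap of the set was 0.58 for Id2-GFP- and 0.66 for Id2-GFP+ CDP, and it was 0.62 for Id2-GFP- and 0.35 for Id2-GFP+ pre-CD8. What sets the brighter and dimmer arrays apart was not tested. Across the 39 genes the gap correlated with the reporter difference with an r of -0.33 in CDP and -0.24 in pre-CD8.

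Related genes outside the set were taken from lists of each pathway. Among 29 other small subunit processome genes the median reporter difference was -0.34 in CDP and -0.22 in pre-CD8, and 25 and 23 were lower in both array sets. With the array set as a block 10 were called lower in CDP, where 4.17% of all genes were, and 8 lower and 1 higher in pre-CD8, where 13.2% of all genes were called lower. Rcl1, of the processome, stood at 7.86 and 7.62 in Id2-GFP- CDP, 6.59 and 7.12 in Id2-GFP+ CDP, 7.90 and 7.46 in Id2-GFP- pre-CD8, and 6.22 and 6.81 in Id2-GFP+ pre-CD8, with no overlap between classes. Among 40 other large subunit assembly genes the medians were -0.33 and -0.35, with 12 and 19 called lower against the same shares. The 11 other RNA polymerase I genes had medians of -0.13 and -0.26, and the 10 other snoRNP genes -0.40 and -0.20. The 14 genes of the RNA exosome, which trims the rRNA precursor, had medians of -0.19 and -0.07. Without the block 0 genes of these lists were called in either reporter comparison.

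Ribosomal proteins are the parts that these factors assemble with rRNA. Their 52 measured genes had medians of -0.15 in CDP and -0.21 in pre-CD8, and all 52 were lower in both array sets in pre-CD8. With the block 11 were called lower in CDP and 36 in pre-CD8, against 4.17% and 13.2% of all genes, and without it 0 (2 and 9 at an unadjusted p under 0.05). Enzymes of purine, pyrimidine and polyamine synthesis, which supply growing cells with nucleotides and polyamines, had medians of -0.58 and -0.50 over 13 genes. Of these 12 and 11 were called lower with the block, against the same 4.17% and 13.2% of all genes, and 0 without it.

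**Figure D4:**
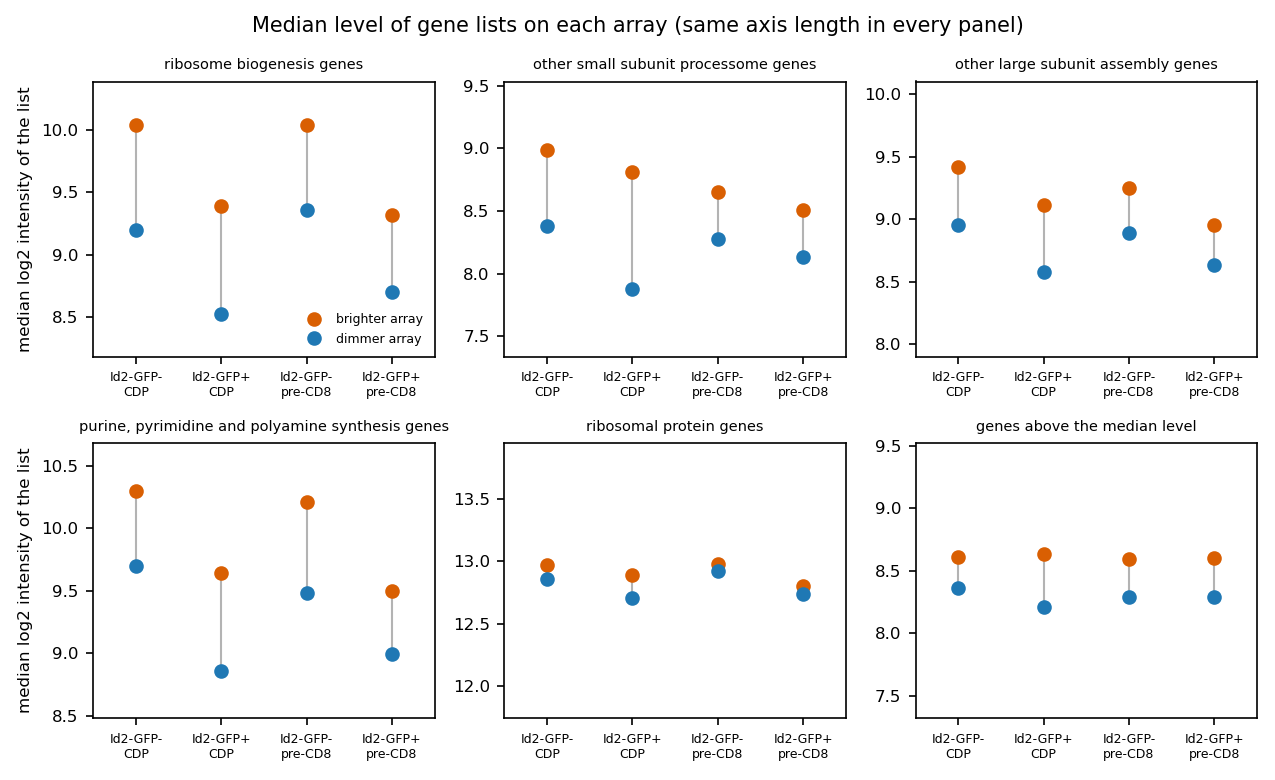
Median log2 intensity of 6 gene lists on the brighter (orange) and dimmer (blue) array of each group, with axes of equal length. Ribosome biogenesis genes stand at 10.04 on the brighter array of both Id2-GFP- groups and at 9.39 and 9.32 on those of the Id2-GFP+ groups, while genes above the median level stand between 8.59 and 8.63 on the brighter and between 8.21 and 8.36 on the dimmer arrays.

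Myc itself stood at 11.95 and 10.75 in Id2-GFP- CDP, 9.86 and 11.10 in Id2-GFP+ CDP, 12.22 and 11.55 in Id2-GFP- pre-CD8, and 10.12 and 10.84 in Id2-GFP+ pre-CD8. It was lower in Id2-GFP+ cells by -0.87 ± 0.51 in CDP and -1.40 ± 0.51 in pre-CD8, with adjusted p-values of 0.00405 and 2.58e-05 with the block and no call without it. Its partner Max differed by -0.27 ± 0.36 and -0.28 ± 0.36. Over the 11 genes of the Myc network the medians were 0.13 and 0.02. Without the block 0 were called in CDP, where 0.597% of all genes were. In pre-CD8, where 6.26% of all genes were called, Mycl and Mxd3 rose and Mycn and Mxd4 fell. The differences there were 2.01 ± 0.23 for Mycl, -2.04 ± 0.27 for Mycn and -1.45 ± 0.22 for Mxd4, a gene whose protein competes with Myc for Max.

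Some markers of other cells and of the cell cycle also differed between reporter classes. Limma without the block, used for the counts below, called 0.597% of all genes in CDP and 6.26% in pre-CD8. Of 12 neutrophil granule markers 7 rose in Id2-GFP+ CDP, and 8 rose and 1 fell in Id2-GFP+ pre-CD8, by limma without the block. Their summed intensity was 17997 to 30454 in Id2-GFP- CDP, 58595 to 87331 in Id2-GFP+ CDP, 13221 to 17095 in Id2-GFP- pre-CD8 and 40249 to 46301 in Id2-GFP+ pre-CD8. The granule gene Camp was at 8.72 to 9.59 in Id2-GFP- CDP and 13.30 to 13.58 in Id2-GFP+ CDP, and Mpo, of primary granules, at 12.92 to 13.53 and 11.78 to 13.25. Of 11 B lineage markers 6 fell from Id2-GFP- to Id2-GFP+ pre-CD8, with a summed intensity of 6048 to 7703 and 920 to 1069, and 0 were called between CDP classes. Of 8 monocyte markers the same fit called 2 higher in Id2-GFP+ CDP, where the median difference was -0.06. In Id2-GFP+ pre-CD8 it called 4 of them higher and 1 lower, with a median of 1.07. The summed intensity of these markers was 12039 to 13511 in Id2-GFP- CDP, 13832 to 15473 in Id2-GFP+ CDP, 2897 to 3118 in Id2-GFP- pre-CD8 and 9916 to 10460 in Id2-GFP+ pre-CD8. Of 9 T and NK markers 1 rose in Id2-GFP+ CDP, where the median difference was 0.69, and 2 rose and 1 fell in Id2-GFP+ pre-CD8, where it was 0.44. Their summed intensity was 584 to 660 in Id2-GFP- CDP, 972 to 1444 in Id2-GFP+ CDP, 1125 to 1464 in Id2-GFP- pre-CD8 and 926 to 1434 in Id2-GFP+ pre-CD8. Of 7 erythroid markers 0 were called by that fit, with 1 in CDP and 2 in pre-CD8 at an unadjusted p under 0.05.

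Limma without the block called 6.26% of all genes between reporter classes in pre-CD8 and 0.597% in CDP. Of 24 genes of G2 and M phase it called 20 higher in Id2-GFP+ pre-CD8, with a median difference of 1.49. It called 0 of them in CDP, where their median was 0.35. Their summed intensity was 29158 to 33743 in Id2-GFP- CDP, 35571 to 46439 in Id2-GFP+ CDP, 12259 to 17048 in Id2-GFP- pre-CD8 and 33991 to 47056 in Id2-GFP+ pre-CD8. The 26 genes of S phase had medians of -0.24 in CDP and 0.22 in pre-CD8. Mitotic genes were thus higher in Id2-GFP+ pre-CD8, where ribosome biogenesis genes had the lower values. The part of these marker and cell cycle differences in the values of the ribosome biogenesis genes was not tested.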

How the data were processed

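Expression was measured in 8 samples, 2 for each of 4 sorted populations. The authors deposited a table of intensity values for 28853 probe sets, made with RMA in Affymetrix Expression Console per the submitters' processing notes, with no version given. RMA corrects background and normalises between arrays, and it compresses differences of dim genes. The deposited arrays still differed in spread, with an interquartile range of log2 intensity from 3.15 to 3.73. The deposited intensity values were on a linear scale, so log2 was taken and no further normalization was applied. The annotation gave 1 symbol to 21789 probe sets, several to 1621 and none to 5443. Probe sets with 1 symbol, the highest mean taken per gene, left 19938 genes with no filter on dim ones.

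The test was limma 3.58.1 (R 4.3.3). It fitted group means on all 8 arrays together, with an intensity trend, two-sided tests and Benjamini-Hochberg adjustment over all genes, at 0.05. The ± values are standard errors of that fit, with 4 residual degrees of freedom. Tables and figures were made in Python 3.11.15 from the deposited log2-transformed values. The limma fit without a block was tested on simulated data that held no difference between array sets. The fit with the array set as a block was not tested in that way. The number of arrays limits the precision.

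Replicate numbers were checked by correlating each replicate's deviation from its group mean between groups. Same-numbered arrays correlated at 0.713 and 0.69 within a reporter class and at -0.685 to -0.626 across classes, so the numbers do not pair the samples. The array set was used as a block in an alternative fit. Ordered by brightness, the deviations correlated at 0.626 to 0.713 in all 6 pairs of groups, but with 2 arrays a group the ordering sets only the sign. The sets were built from the same values, so these correlations are no independent evidence for the block, and blocked p-values rest on that choice. The "blocked" adjusted p is from that fit, with 3 residual degrees of freedom.

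Genes named in each role were the 3 with the smallest F test p (4 for RNA polymerase I), together with the 5 largest and 5 smallest differences in each comparison within a stage or a reporter class. Up to 4 genes with the smallest F test p could be named from each related list, and Myc, Mycn, Mycl, Max and Mxd4 always. Other genes of the set were added to account for every member, and Camp, Mpo and the population markers were named after their values were seen. The genes and the gene lists were chosen with earlier results of these data known. Alternatives were another normalization, variance prior, probe set rule, filter on dim genes, pairwise fits, both blocks and each array left out. Promoter sequences came from RefSeq.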

Additional observations from a re-analysis of the deposited data

Results flagged for a closer look

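For 4 of the 39 genes the log2 difference from CDP to pre-CD8 had opposite signs in the reporter classes between both the brighter and the dimmer arrays. Wdr3 differed by -0.22 in Id2-GFP- cells and 0.29 in Id2-GFP+ cells. Nop2 differed by -0.20 and 0.09, Bop1 by -0.08 and 0.18, and Npm1 by 0.06 and -0.17. The interaction contrast tests this difference, and limma called none of the 4, or any other of the 39 genes, with or without the array set as a block (0 at an unadjusted p under 0.05 without it).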

How the results depend on the processing

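Another variance prior, a mean over probe sets, fits of the compared groups alone and a filter keeping brighter genes left 0 of the 39 genes called in each comparison, as did each array left out without a block. The fit with the replicate block, the number of the titles, also called 0 in all comparisons, and no pairing by that number holds over all groups. With the array set as a block the counts were 24 (CDP reporter), 24 (pre-CD8 reporter), 4 (stage in Id2-GFP-), 26 (Id2-GFP+ pre-CD8 against Id2-GFP- CDP), 26 (Id2-GFP- pre-CD8 against Id2-GFP+ CDP) and 33 (any difference). Quantile normalization gave 11 in pre-CD8, 4 and 8 in the 2 crossed comparisons and 8 for any difference, and scale normalization 2, 4, 2 and 3. The array set with quantile normalization, an alternative chosen after seeing the data like the block with each array left out, gave 21, 28, 1, 25, 29 and 32 in the order of the block. Over all fits that left out 1 array, with and without that block, the counts ran from 0 to 29, 0 to 30, 0 to 4, 0 to 32, 0 to 28 and 0 to 36 in that order. For counts with another normalization or an array left out no share of all genes is given, so they compare settings only. The gap between array sets was 0.26 after quantile and 0.20 after scale normalization. The cause of these changes was not tested.

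In pre-CD8 the reporter difference turned to 0.11 (Fbl), 0.01 (Nhp2) and 0.02 (Bop1) after scale normalization and to -0.07 for Nop16 after quantile normalization, with or without the block. In the CDP reporter comparison the sign turned without 1 array for Gar1 (-1.12 to 0.25), Npm1 (-0.40 to 0.16), Bms1 (-0.72 to 0.05), Ltv1 (-0.73 to 0.09), Nop16 (-0.57 to 0.19), Wdr12 (-0.95 to 0.14) and Ddx18 (-0.88 to 0.06). In the pre-CD8 reporter comparison the sign turned without 1 array for Fbl (-0.40 to 0.25), Gar1 (-0.96 to 0.06), Nhp2 (-0.34 to 0.04), Polr1a (-0.93 to 0.12), Utp15 (-0.45 to 0.10), Wdr3 (-0.29 to 0.30), Noc4l (-0.59 to 0.11), Bms1 (-0.50 to 0.06), Nop16 (-0.41 to 0.44), Bop1 (-0.44 to 0.17) and Pes1 (-0.68 to 0.08). Between stages in Id2-GFP- cells the sign turned without 1 array for Fbl (-0.62 to 0.03), Polr1b (-0.41 to 0.63), Nop14 (-0.16 to 0.52), Rrp9 (-0.20 to 0.41), Rrp12 (-0.65 to 0.04), Nol6 (-0.13 to 0.34) and Gnl3 (-0.21 to 0.47). Between stages in Id2-GFP+ cells the sign turned without 1 array for Dkc1 (-0.76 to 0.17), Polr1a (-0.21 to 0.51), Polr1b (-0.48 to 0.74), Rrp12 (-0.48 to 0.08), Heatr1 (-0.64 to 0.10), Bop1 (-0.15 to 0.50), Rrp1b (-0.91 to 0.30), Noc3l (-0.08 to 1.14) and Gnl3 (-0.67 to 0.18). With 2 arrays a group the number of arrays limits the precision.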
